A study of Homo sapiens with 12 samples.

Results

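Human cells make cholesterol and fatty acids from acetyl-CoA, and 37 genes of these pathways were followed in A375 cells, an established line from a human melanoma. The genes were chosen by name for their place in sterol and fatty acid synthesis and not for a measured value, though with earlier results of these data known. They comprise 20 enzymes of cholesterol synthesis, 6 genes that regulate the pathway or carry sterol, and 11 enzymes of fatty acid synthesis and desaturation. All 37 were among the 23705 genes counted, and all 37 were among the 13522 genes with enough counts to be tested. Cells were treated for 24 h with vehicle, with 5 μM RGZ (rosiglitazone, an agonist of the nuclear receptor PPARγ), with 2 μM T0070907 (an antagonist of this receptor), or with 5 μM RGZ and 2 μM T0070907 together, here the combination. Each of the 4 conditions had 3 libraries, 1 from each of 3 independent experiments, and technical replicates had their RNA pooled before sequencing. The experiments are numbered here by the replicate number in each library's title.

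As background, cholesterol synthesis joins acetyl units into mevalonate, turns mevalonate into prenyl diphosphates, condenses these to squalene and closes and trims the ring system of the sterols. Fatty acid synthesis starts from the same acetyl-CoA, builds palmitate, and then lengthens and desaturates it. Many enzymes of both pathways are transcribed under the control of SREBP-1 and SREBP-2, encoded by *SREBF1* and *SREBF2*, which SCAP escorts out of the endoplasmic reticulum when sterols are low and which INSIG proteins hold back when sterols are high.

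The vehicle libraries held 8319455 to 8687191 counts in all, with a median of 8411073. Those of RGZ held 9001174 to 10096418 (9874966), those of T0070907 8524144 to 11375227 (10822352) and those of the combination 8426908 to 9471903 (9327546). Levels are given as CPM, the count of a gene relative to its library's total after scaling by TMM. Changes are log2 fold changes with an approximate standard error after ±, from the quasi-likelihood test of edgeR, adjusted by Benjamini-Hochberg over all 13522 genes, and a gene was called at an adjusted p-value under 0.05. Libraries with the same replicate number deviated together on average. For this reason each comparison is also given with the experiment as a replicate block in the model. Combination library 1 shared little of this, with correlations of 0.0793 with vehicle 1, 0.162 with T0070907 1 and 0.194 with RGZ 1. The other pairs with the same number had 0.381 to 0.758. Without the block the p-values measure a change against the spread between the 3 experiments, and with it against the spread left once the level of each experiment is taken out. In bulk RNA, fewer cells with a transcript and less of it in each cell cannot be told apart.

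The markers fitted the label in part. *SOX10*, a transcription factor of the melanocyte lineage, was the most abundant of 8 melanocyte lineage markers with 178 to 429 CPM across the 12 libraries, and *MITF* had 24.4 to 59.6 CPM. The pigment genes *PMEL*, *MLANA*, *TYR*, *DCT* and *TYRP1* were at or near 0, with *TYR* at 0 in every library, while of 4 markers of melanoma cells that lack pigment genes, *AXL* averaged 519 CPM and *NGFR* 198 CPM with vehicle, and *EGFR* and *SOX9* 18.8 and 12.8 CPM. *NGFR* ran from 22.8 to 277 CPM over the 12 libraries. Of genes that define other cells, *ADIPOQ* of adipocytes and *KRT1* of keratinocytes were at 0 in all libraries, while *KRT14* of keratinocytes averaged 20.8 CPM with vehicle, beside 25.7 CPM for the melanocyte marker *S100B*. Some markers differed with the treatment. With RGZ and the replicate block, *MITF* (-0.34 ± 0.08, adjusted p = 0.00997), *S100B* (-1.02 ± 0.13, adjusted p = 3.73e-05), *AXL* (-0.22 ± 0.07, adjusted p = 0.0434), *NGFR* (-1.18 ± 0.17, adjusted p = 1.01e-04), *COL1A1* (-0.76 ± 0.13, adjusted p = 6.72e-04) and *KRT14* (-0.94 ± 0.14, adjusted p = 1.82e-04) fell in edgeR's test, each lower in 3 of 3 experiments, and without the block none of these passed, with adjusted p-values from 0.523 to 0.801. The 3 keratinocyte markers, of which *KRT14* was the most abundant, summed to 18.7, 14.3 and 33.4 CPM in the vehicle libraries and 11.2, 6.51 and 16.6 in the RGZ libraries, and the 5 fibroblast markers to 15.7, 35.7 and 15.1 CPM and to 12.8, 21.8 and 11 CPM. *COL1A1* was the most abundant of these 5 in experiments 1 and 2 and *LUM* in experiment 3, and *LUM* averaged 4.83 CPM with vehicle and 4.91 CPM with RGZ. The 4 adipocyte markers, led by *CIDEC*, summed to 0.681, 1.07 and 0.235 CPM in the vehicle libraries and 0.416, 3.88 and 1.12 CPM in the RGZ libraries. With the block *S100B* also rose with T0070907 against vehicle in edgeR's test (0.59 ± 0.11, adjusted p = 0.0119), while without the block 0 of all tested genes were called higher there. *MITF*, *S100B*, *NGFR* and *KRT14* were higher with the combination than with RGZ in the fit with the block (adjusted p from 1.61e-06 to 0.0377). The part of these markers in the differences described next was not tested.

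In vehicle-treated cells, levels of different genes were compared per kb of the longest annotated transcript. *ACLY*, the enzyme that makes cytosolic acetyl-CoA from citrate for both pathways, had 89.8 ± 8.91 CPM per kb (SD, n = 3). *FDPS*, the farnesyl diphosphate synthase of the mevalonate pathway, had 83.1 ± 5.08 CPM per kb (SD, n = 3). *SCD*, the stearoyl-CoA desaturase, had 75.1 ± 13.7 and *FASN*, the fatty acid synthase, 62 ± 2.68 CPM per kb (SD, n = 3 each). The spreads of *ACLY*, *FDPS* and *SCD* overlapped, so that their order is not resolved, while *FASN* lay below *ACLY* and *FDPS* by more than the SDs. At the low end were *SCD5*, a second desaturase gene, with 2.07 ± 0.467, *ACACB*, the acetyl-CoA carboxylase found at mitochondria, with 1.13 ± 0.238, and *STARD4*, a sterol carrier, with 1.12 ± 0.341 CPM per kb (SD, n = 3 each). Both pathways had members near the top and near the bottom of this order.

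**Figure D1:**
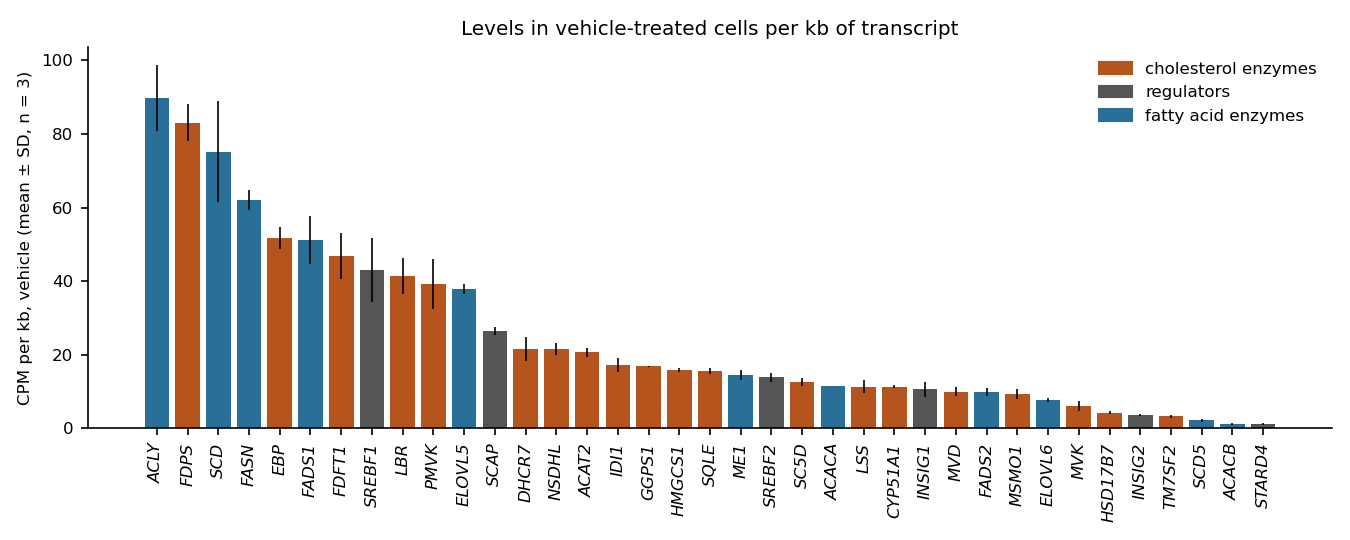
Levels of the 37 genes in vehicle-treated A375 cells, in CPM per kb of the longest annotated transcript, as mean (bar) and SD (line) over 3 libraries, coloured by list. ACLY, FDPS and SCD stand highest and ACACB and STARD4 lowest, at 1.13 and 1.12 CPM per kb.

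Since members of a pathway can share promoter elements, the promoters of the members were read from a set of RefSeq promoters (GRCh38.p14). This set held 46 promoters of 33 members, each running from 250 bases before to 50 bases after the start. It had no entry for ACAT2, FDFT1, SQLE and FASN, which does not mean that RefSeq lacks these genes. Both strands were searched for 6 motifs, and each share is set beside that over all 35116 promoters of 300 bases. This comparison set was not limited to genes with enough counts to be tested, whereas all members had enough. CCAAT, the box bound by NF-Y, was found in 28 of the 46 promoters (60.9%, against 34.6% of all), in 16 of 24 of cholesterol enzymes (66.7%), 3 of 7 of regulators (42.9%) and 9 of 15 of fatty acid enzymes (60%). GGGCGG, the GC box, was found in 38 of 46 (82.6%, against 45% of all). CACGTG, the E-box, was found in 6 (13%, against 7.26%). The sterol regulatory element, searched as TCACNCCAC with N as any base, was found in 1 (2.17%, against 1.13%), that of *SREBF2*. AGGTCA, the half-site of the PPAR response element, was found in 4 (8.7%, against 13.8%), and the whole element searched here, AGGTCA repeated with 1 base between and so holding the half-site, in 0 (8 of all promoters, 0.0228%). With only the first listed promoter of each gene, CCAAT was found for 12 of 17 cholesterol enzymes (70.6%), 3 of 6 regulators (50%) and 4 of 10 fatty acid enzymes (40%), the last close to the share of all genes. In this counting the shares of the 33 members were 57.6% for CCAAT, 81.8% for the GC box, 15.2% for the E-box, 3.03% for the sterol regulatory element and 6.06% for the half-site, against 35.7%, 44.6%, 7.43%, 1.15% and 13.9% of 27305 genes. The whole PPAR response element was found for 0 of the 33 members, against 6 of the 27305 genes (0.022%). A match is a stretch of letters and not a measured binding site, and no match says only that these letters are not in the window. The bases just upstream of the start are shown for 4 members, 3 enzymes whose values are described below and *SREBF2*, because they hold the CCAAT box in several copies or the sterol regulatory element. These are *MVD* at chr16:88663092-88663291 on the minus strand, *FDPS* at chr1:155308666-155308865, *SREBF2* at chr22:41832905-41833104 and *SCD* at chr10:100346993-100347232, the last 3 on the plus strand. Capitals mark CCAAT or its reverse complement ATTGG and, in *SREBF2*, the sterol regulatory element.
MVD: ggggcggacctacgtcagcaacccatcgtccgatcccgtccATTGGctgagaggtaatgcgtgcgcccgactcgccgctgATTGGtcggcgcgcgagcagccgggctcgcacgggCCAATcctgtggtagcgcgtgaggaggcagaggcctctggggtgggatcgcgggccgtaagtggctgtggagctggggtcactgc
FDPS: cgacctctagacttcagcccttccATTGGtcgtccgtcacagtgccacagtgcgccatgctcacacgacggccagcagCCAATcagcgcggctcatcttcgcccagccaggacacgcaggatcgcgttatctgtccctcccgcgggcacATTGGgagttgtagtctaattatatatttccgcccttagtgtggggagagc
SREBF2: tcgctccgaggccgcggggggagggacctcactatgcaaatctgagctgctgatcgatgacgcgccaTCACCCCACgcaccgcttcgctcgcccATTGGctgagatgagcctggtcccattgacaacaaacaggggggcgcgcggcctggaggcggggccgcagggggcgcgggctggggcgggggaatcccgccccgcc
SCD: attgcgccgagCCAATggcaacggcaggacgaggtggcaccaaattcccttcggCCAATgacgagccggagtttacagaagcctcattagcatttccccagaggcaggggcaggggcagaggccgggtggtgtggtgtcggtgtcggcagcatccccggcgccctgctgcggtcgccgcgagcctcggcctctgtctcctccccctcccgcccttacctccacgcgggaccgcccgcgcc

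RGZ against vehicle asks what the agonist alone did to these genes. Among the cholesterol enzymes, *FDFT1* (NCBI gene 2222), the squalene synthase, had 115, 144 and 114 CPM with vehicle, 152, 181 and 141 under RGZ, 113, 144 and 125 under T0070907 and 147, 162 and 142 under the combination, in experiments 1, 2 and 3 in turn. *DHCR7* (NCBI gene 1717), which makes the last reduction to cholesterol in one branch of the pathway, had 57.7, 65.6 and 48.8 CPM with vehicle, 70.3, 82.5 and 58 under RGZ, 66.8, 70.6 and 52.5 under T0070907 and 75, 80.6 and 62.2 under the combination. In both genes the RGZ libraries overlapped the vehicle libraries, because experiment 2 was high in every condition, yet within each experiment RGZ was higher than vehicle. *CYP51A1* (NCBI gene 1595), the lanosterol demethylase, had 35.1, 36.8 and 36.8 CPM with vehicle, 41.2, 44.8 and 39.1 under RGZ, 33, 40.2 and 36.6 under T0070907 and 37.1, 45 and 37.5 under the combination. *MSMO1* (NCBI gene 6307), which removes methyl groups further on, had 18.3, 24.7 and 20.0 CPM with vehicle, 23.6, 27.4 and 21.3 under RGZ, 17.7, 22.4 and 20.8 under T0070907 and 24.6, 26.9 and 21 under the combination. The 3 RGZ libraries lay above the 3 vehicle libraries for *CYP51A1*, and the groups overlapped for *MSMO1*. *ACAT2* (NCBI gene 39), the cytosolic thiolase of the first step, had 64.8, 69.8 and 61.5 CPM with vehicle, 55.7, 61.8 and 57.2 under RGZ, 73.2, 69.8 and 66.5 under T0070907 and 83.4, 75.3 and 65.6 under the combination, and was lower with RGZ than with vehicle in each experiment, with overlapping groups.

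Among the fatty acid enzymes, *SCD* (NCBI gene 6319) had 379, 486 and 344 CPM with vehicle, 507, 599 and 464 under RGZ, 365, 502 and 316 under T0070907 and 467, 612 and 427 under the combination. *ELOVL6* (NCBI gene 79071), which elongates palmitate, had 46.3, 47.8 and 53.3 CPM with vehicle, 60.8, 63.6 and 68.8 under RGZ, 44.9, 38.6 and 43.9 under T0070907 and 45.5, 47.9 and 59.6 under the combination. For *ELOVL6* all RGZ libraries lay above all vehicle libraries and all T0070907 libraries below them, and for *SCD* the groups overlapped while each experiment was higher with RGZ. *ACACB* (NCBI gene 32) had 11.9, 11.8 and 8 CPM with vehicle, 8.84, 8.22 and 7.71 under RGZ, 10.9, 14.1 and 9.22 under T0070907 and 8.89, 12.5 and 8.04 under the combination, lower with RGZ than with vehicle in each experiment, but the vehicle library of experiment 3 lay among the RGZ libraries.

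**Figure D2:**
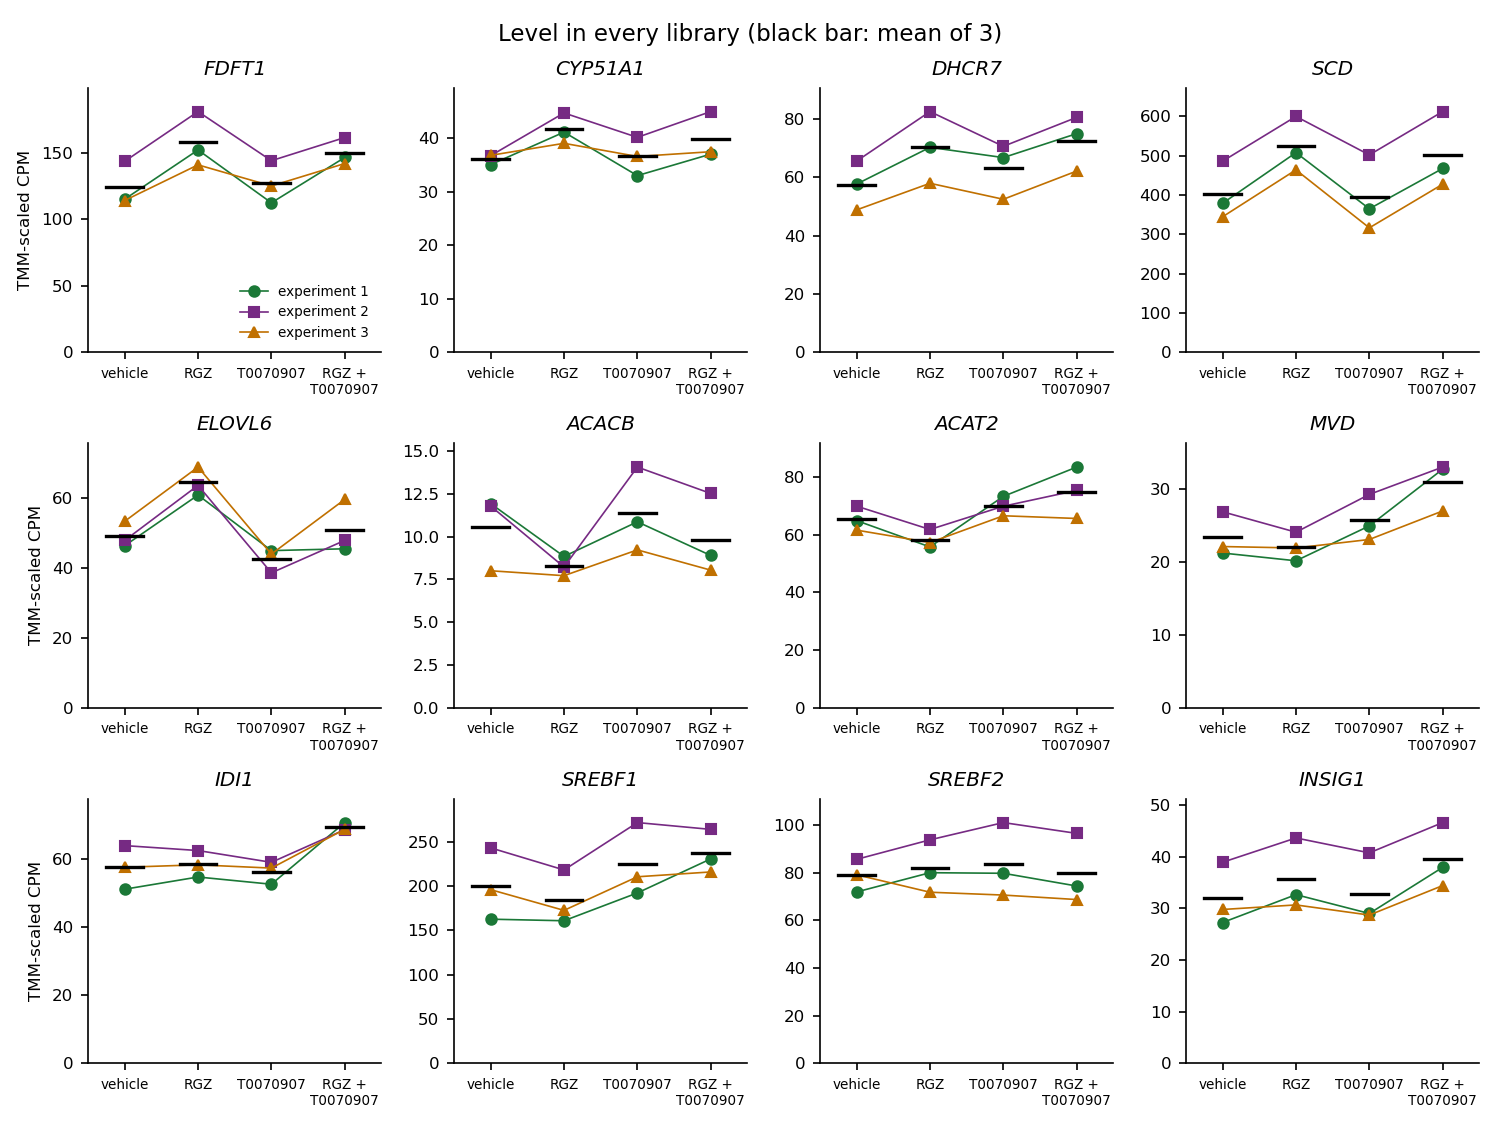
Level in every library for 12 members, in TMM-scaled CPM, by condition, with lines joining the libraries of 1 experiment and black bars for the mean of 3. FDFT1, DHCR7 and SCD are higher with RGZ than with vehicle along each line, while MVD, IDI1 and ACAT2 stand highest on average with the combination.

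Without the block, 0 of the 37 members were called for RGZ by edgeR's test, against 1.24% of all tested genes, and 0 were called by DESeq2, which called 219 of all genes higher and 83 lower. At an unadjusted p-value under 0.05 there were 2 (*FDFT1* and *ELOVL6*, both higher, against 10.5% of all). With the replicate block 4 of 37 were called, against 9.3% of all tested genes, and all 4 were higher, against 4.95% called higher. The share of members called is close to that of all genes. *FDFT1* rose by 0.35 ± 0.06 (adjusted p = 9.27e-04 in edgeR with Benjamini-Hochberg adjustment, 0.295 without the block). *SCD* rose by 0.39 ± 0.06 (adjusted p = 1.36e-04, and 0.518 without the block), and *ELOVL6* by 0.39 ± 0.08 (adjusted p = 0.00258, and 0.136 without it). *DHCR7* rose by 0.29 ± 0.06 (adjusted p = 0.00589, and 0.567 without the block). Each of the 4 was higher in 3 of 3 experiments. Leaving out RGZ library 2 ended the call of *DHCR7* (adjusted p = 0.0593 with the block), and the other 3 calls held in all 12 fits that left out 1 library. Of the remaining members with values above, *CYP51A1* had 0.20 ± 0.08 (adjusted p = 0.128 with edgeR and the block, higher in 3 of 3 experiments), *ACAT2* -0.17 ± 0.07 (adjusted p = 0.202, higher in 0 of 3) and *ACACB* -0.34 ± 0.14 (adjusted p = 0.162, higher in 0 of 3), none of which passed.

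The regulators did not pass the test for RGZ. *SREBF1* (NCBI gene 6720) had 163, 243 and 196 CPM with vehicle, 161, 218 and 173 under RGZ, 192, 272 and 211 under T0070907 and 231, 264 and 216 under the combination. *SREBF2* (NCBI gene 6721) had 71.9, 85.6 and 79.1 CPM with vehicle, 79.9, 93.7 and 71.8 under RGZ, 79.7, 101 and 70.6 under T0070907 and 74.4, 96.4 and 68.7 under the combination. *INSIG1* (NCBI gene 3638), a sterol sensor that is itself a target of SREBPs, had 27.3, 38.9 and 29.8 CPM with vehicle, 32.6, 43.6 and 30.7 under RGZ, 29, 40.7 and 28.7 under T0070907 and 37.9, 46.6 and 34.4 under the combination. In all 3 genes experiment 2 was the highest in every condition, and the groups of each comparison overlapped. The log2 fold changes for RGZ with the block were -0.12 ± 0.07, 0.05 ± 0.07 and 0.16 ± 0.08 (adjusted p = 0.297, 0.764 and 0.257 in edgeR, higher in 0, 2 and 3 of 3 experiments).

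**Figure D3:**
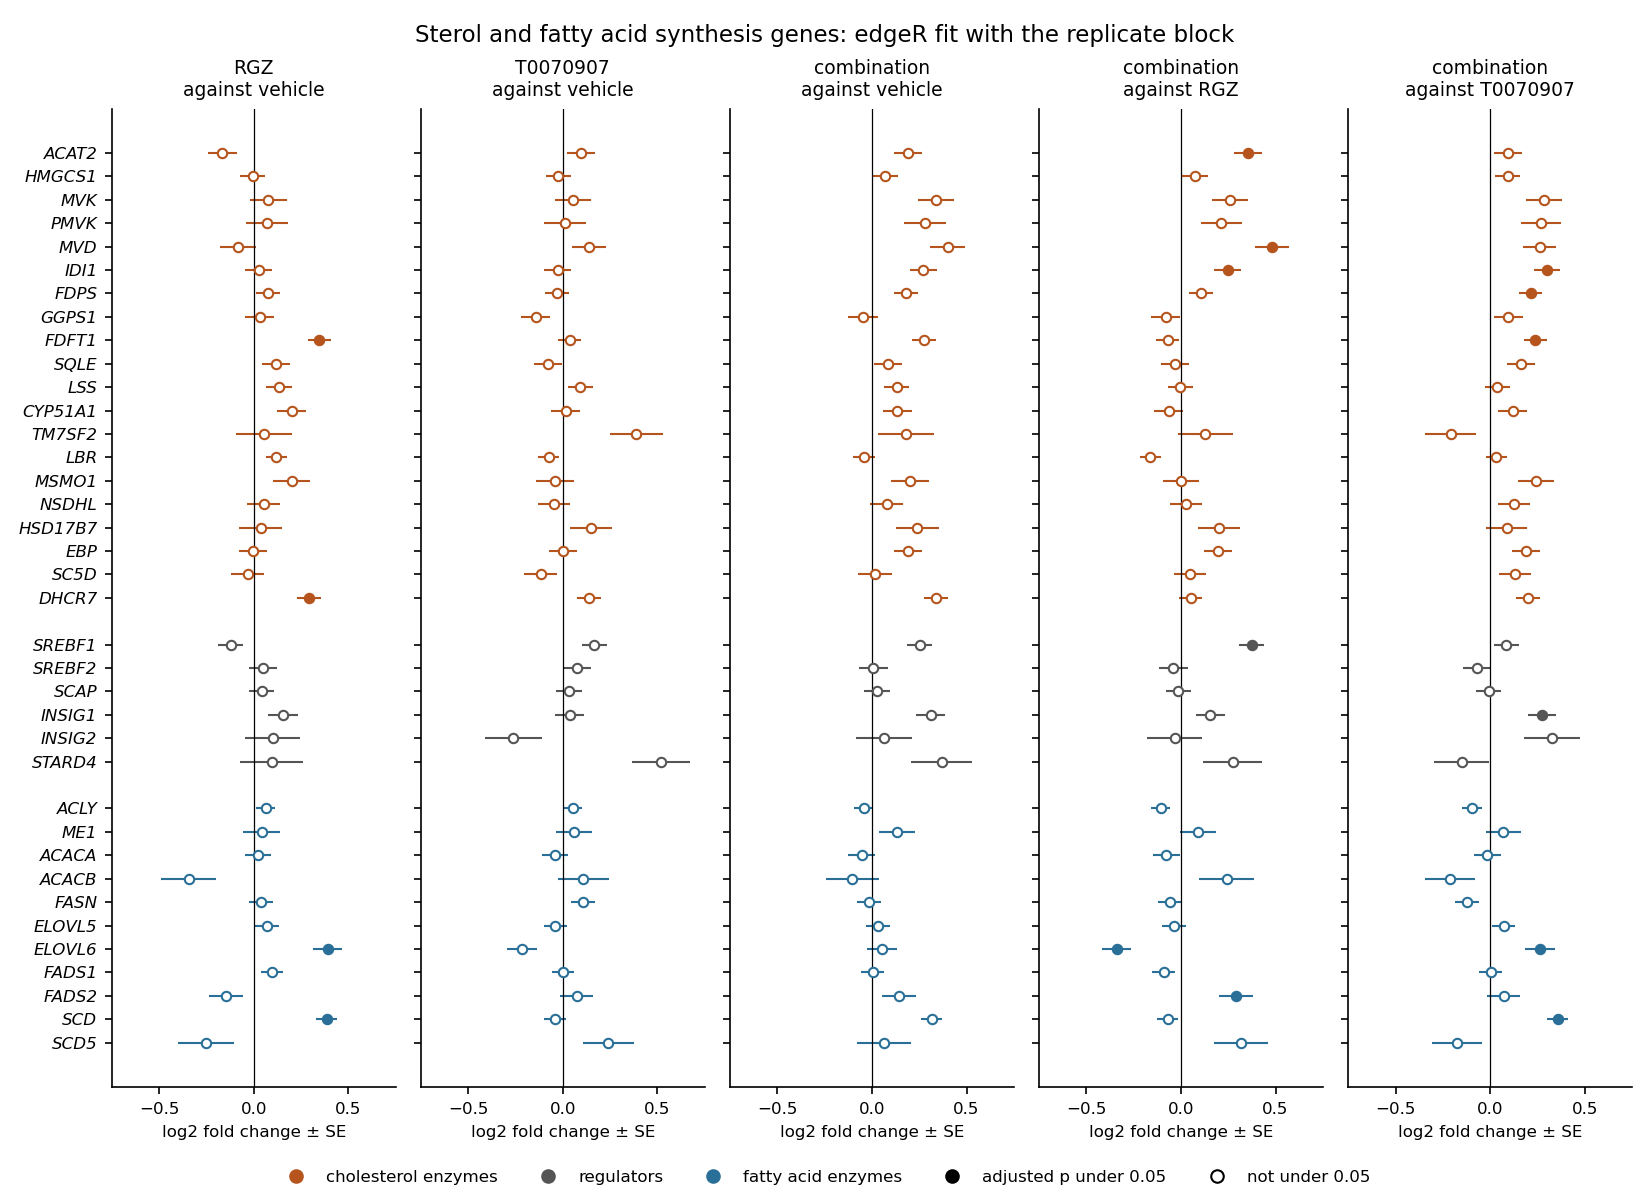
Log2 fold change (point) and approximate standard error (line) of the 37 genes in 5 comparisons from edgeR with the replicate block, coloured by list. Filled points were called, which holds for 4 genes for RGZ against vehicle, 0 for T0070907 and for the combination against vehicle, 6 for the combination against RGZ and 6 for the combination against T0070907.

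T0070907 against vehicle asks what the antagonist did alone. The members with the smallest p-values without the block were *ELOVL6*, given above, and 3 genes of low or middle level. *TM7SF2* (NCBI gene 7108), a sterol reductase, had 5.9, 6.9 and 7.18 CPM with vehicle, 6.03, 7.08 and 7.61 under RGZ, 6.01, 10.2 and 9.91 under T0070907 and 6.18, 8.62 and 7.93 under the combination. *STARD4* (NCBI gene 134429) had 5, 6.78 and 3.65 CPM with vehicle, 5.72, 6.51 and 4.16 under RGZ, 7.16, 9.04 and 5.86 under T0070907 and 5.31, 9.15 and 5.36 under the combination. *GGPS1* (NCBI gene 9453), the geranylgeranyl diphosphate synthase, had 47.7, 48.8 and 49.1 CPM with vehicle, 50.8, 47.6 and 50.3 under RGZ, 39.7, 42.1 and 49.9 under T0070907 and 43.5, 48 and 49.4 under the combination. T0070907 was higher than vehicle within each experiment for *TM7SF2* and *STARD4*, and lower in experiments 1 and 2 for *GGPS1*, and the groups overlapped for all 3 genes. Without the block, edgeR called 0 of 37 members, against 0.0074% of all tested genes, DESeq2 called 0 members and 21 of all genes, and 0 members had an unadjusted p-value under 0.05, against 3.1%. With the block 0 were called, against 0.91%, and 5 had an unadjusted p-value under 0.05, against 9.82%, which were *STARD4*, *TM7SF2*, *ELOVL6*, *SREBF1* and *DHCR7* and not *GGPS1*. *STARD4* had 0.52 ± 0.15 (adjusted p = 0.167 in edgeR with the block, higher in 3 of 3 experiments), *TM7SF2* 0.39 ± 0.14 (adjusted p = 0.304, higher in 3 of 3) and *ELOVL6* -0.21 ± 0.08 (adjusted p = 0.328, higher in 0 of 3). Leaving out combination library 1 from the fit with the block called 1 member, *SREBF1* (0.17 ± 0.05, adjusted p = 0.0495), against 2.4% of all genes tested there.

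With the combination, 18 of 20 cholesterol enzymes and 7 of 11 fatty acid enzymes had positive fold changes against vehicle, beside 6732 of all 13522 tested genes. *MVD* (NCBI gene 4597), the mevalonate diphosphate decarboxylase, had 21.2, 26.9 and 22.1 CPM with vehicle, 20.2, 24.1 and 21.9 under RGZ, 25, 29.3 and 23.1 under T0070907 and 32.7, 33 and 27 under the combination. *IDI1* (NCBI gene 3422), the isopentenyl diphosphate isomerase, had 51.1, 63.9 and 57.5 CPM with vehicle, 54.7, 62.5 and 58.3 under RGZ, 52.6, 59 and 57.3 under T0070907 and 70.7, 68.6 and 68.7 under the combination. Both were chosen for display after their values were seen, and for both the 3 combination libraries lay above the 3 vehicle libraries. For *MVD* this was narrow, with 27.0 CPM in combination library 3 and 26.9 CPM in vehicle library 2. How many of all tested genes had separate groups is not given here, for this or the other comparisons. None of this passed the adjusted test. Without the block edgeR called 0 of 37 members, against 0% of all tested genes, DESeq2 called 0 members and 0 of all genes, and 6 members had an unadjusted p-value under 0.05, against 10.6%. All 6 were cholesterol enzymes and higher: *PMVK*, *MVD*, *IDI1*, *FDPS*, *FDFT1* and *EBP*. With the block edgeR again called 0 members and 0% of all genes, and 13 members had an unadjusted p-value under 0.05, against 21.2%. All 13 were higher, against 10.8% of all genes, and they were 9 cholesterol enzymes, 3 regulators and 1 fatty acid enzyme, *SCD*. *DHCR7* had 0.34 ± 0.06, *MVD* 0.40 ± 0.09 and *SCD* 0.32 ± 0.06 (adjusted p = 0.0983, 0.0989 and 0.0959 with edgeR and the block, each higher in 3 of 3 experiments).

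The count for the combination against vehicle turned on single libraries. In fits with the block that left out 1 library, 8 members were called without vehicle library 2 (6 of them cholesterol enzymes, all higher), against 6.38% of all genes tested there, and 11 without combination library 2 (8 cholesterol enzymes, *SREBF1*, *INSIG1* and *SCD*, all higher), against 19%. Without combination library 1 only *SCD* was called (0.33 ± 0.06, adjusted p = 0.00892), against 0.051%, and 0 were called in the other 9 fits.

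The combination against RGZ asks what the antagonist changed in the presence of the agonist. For *ACAT2* the 3 combination libraries, given above, lay above the 3 RGZ libraries, and for *ELOVL6* below them. Without the block edgeR called 0 of 37 members, against 1.24% of all tested genes, and 7 had an unadjusted p-value under 0.05 (6 higher and 1 lower), against 13.1%. DESeq2 called 1, *ACAT2* (0.36, adjusted p = 0.0272), against 2.35% of all. With the replicate block 6 were called, against 11.4%, and 5 of them were higher, against 5.55% called higher. *MVD* rose by 0.48 ± 0.09 (adjusted p = 0.00159 with edgeR and the block, 0.113 without it), *ACAT2* by 0.36 ± 0.07 (adjusted p = 0.0037, and 0.0917 without) and *SREBF1* by 0.37 ± 0.07 (adjusted p = 8.36e-04, and 0.379 without). *IDI1* rose by 0.25 ± 0.07 (adjusted p = 0.0297, and 0.249 without) and *FADS2*, a fatty acid desaturase, by 0.29 ± 0.09 (adjusted p = 0.0425, and 0.354 without). *ELOVL6* had -0.34 ± 0.08 (adjusted p = 0.00701, and 0.196 without the block). The 5 were higher in 3 of 3 experiments and *ELOVL6* in 0 of 3. Leaving out 1 library ended the call of *ACAT2* for RGZ library 1 (adjusted p = 0.0525), that of *IDI1* for each of the RGZ libraries and for combination libraries 1 and 3 (adjusted p up to 0.138), and that of *FADS2* in 8 of 12 fits, without vehicle 3, RGZ 2 or 3, T0070907 1 or 3, or any combination library (adjusted p up to 0.271). In edgeR without the block, *ACAT2* was called once combination library 3 was left out (adjusted p = 0.0402). *MVD*, *SREBF1* and *ELOVL6* held in all 12 fits with the block.

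The combination against T0070907 asks what the agonist changed in the presence of the antagonist. Of the 20 cholesterol enzymes 19 had a positive fold change, and of the 11 fatty acid enzymes 6, beside 6571 of all 13522 genes. Without the block edgeR called 0 of 37 members, against 0.037% of all, DESeq2 called 0 members, beside 62 of all genes higher and 21 lower, and 4 members had an unadjusted p-value under 0.05, all higher, against 15%. With the replicate block 6 were called, against 8.76%, and all were higher, against 4.55% called higher. *SCD* rose by 0.36 ± 0.06 (adjusted p = 0.00122 with edgeR and the block, 0.409 without it), and this call held in all 12 fits that left out 1 library. *IDI1* rose by 0.30 ± 0.07 (adjusted p = 0.0178, and 0.261 without the block), *FDFT1* by 0.24 ± 0.06 (adjusted p = 0.0263, and 0.385 without) and *INSIG1* by 0.27 ± 0.08 (adjusted p = 0.0345, and 0.529 without). *FDPS* rose by 0.21 ± 0.06 (adjusted p = 0.0431, and 0.261 without) and *ELOVL6* by 0.26 ± 0.08 (adjusted p = 0.0456, and 0.29 without). All 6 were higher in 3 of 3 experiments. The number of members called with the block moved with that of all genes. It was 3 without RGZ library 1 or 3, T0070907 library 3 or combination library 1, 2 without T0070907 library 1, 1 without T0070907 library 2 or combination library 3, and 11 without combination library 2. Of all genes, 106 to 3342 were called over the same fits, fewest without combination library 3 and most without combination library 2. *FDFT1* lost its call without T0070907 libraries 1 or 2 or combination library 3, with adjusted p-values up to 0.184. *IDI1* lost it without these 3 or combination library 1 (up to 0.108). *INSIG1* lost it in 7 fits (without RGZ 1 or 3, any T0070907 library, or combination 1 or 3, up to 0.164), *FDPS* in 8 (those 7 or vehicle 3, up to 0.243) and *ELOVL6* in 8 (without vehicle 1 or 3, any RGZ library, T0070907 2 or 3, or combination 3, up to 0.254).

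Side by side, the effect of RGZ against vehicle and the effect of the combination against vehicle, which share the vehicle libraries, were 0.39 and 0.32 for *SCD*, 0.35 and 0.28 for *FDFT1*, and 0.29 and 0.34 for *DHCR7* (log2 fold changes with the block). For *ELOVL6* they were 0.39 and 0.05, for *MVD* -0.08 and 0.40, for *IDI1* 0.03 and 0.27, and for *ACAT2* -0.17 and 0.19. Whether the effect of RGZ differs when T0070907 is present was tested as the interaction. Without the block edgeR called 0 of 37 members, against 0% of all genes, DESeq2 called 0 members and 1 of all genes, and 1 member (*IDI1*) had an unadjusted p-value under 0.05, against 3%. With the block 0 were called, against 0.281%, and 5 had an unadjusted p-value under 0.05, against 9.79%. These were *MVD* (0.34 ± 0.13, adjusted p = 0.391 in edgeR with the block), *IDI1* (0.27 ± 0.10, 0.383), *ACAT2* (0.26 ± 0.10, 0.42) and *SREBF1* (0.21 ± 0.09, 0.481), each higher in 3 of 3 experiments, and *ACLY* (-0.16 ± 0.07, 0.484), higher in 0 of 3.

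Taking the lists as a whole without the block, the median log2 fold change of the 20 cholesterol enzymes was 0.06 for RGZ, 0.00 for T0070907 and 0.19 for the combination, each against vehicle. That of the 11 fatty acid enzymes was 0.04, 0.06 and 0.03, and that of all tested genes -0.01 for RGZ and 0.00 for the others. In fits that left out 1 library, the cholesterol median ran from 0.016 to 0.116, -0.060 to 0.069 and 0.13 to 0.24 in the same order. The fatty acid median ran from -0.023 to 0.093, -0.065 to 0.154 and -0.040 to 0.083, so that its sign depended on the libraries. Within experiments 1, 2 and 3, the cholesterol median for the combination against vehicle was 0.31, 0.10 and 0.13, and the fatty acid median 0.02, 0.12 and 0.01, so that in experiment 2 the fatty acid median was the higher one. The 8 genes of the prenyl diphosphate steps (*ACAT2*, *HMGCS1*, *MVK*, *PMVK*, *MVD*, *IDI1*, *FDPS*, *GGPS1*) had medians of 0.03 for RGZ and -0.01 for T0070907 against vehicle, where the 12 genes of the squalene and sterol steps had 0.12 and 0.01. For the combination the medians of the prenyl diphosphate steps were 0.23 against vehicle, 0.23 against RGZ and 0.24 against T0070907, and those of the squalene and sterol steps 0.16, 0.02 and 0.13. These last 3 comparisons share the combination libraries. Within experiments 1, 2 and 3, the combination against vehicle gave medians of 0.41, 0.10 and 0.22 for the prenyl diphosphate steps. The squalene and sterol steps had 0.26, 0.10 and 0.11, so that experiment 2 showed no gap between these 2 lists. No test was made between the lists.

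**Figure D4:**
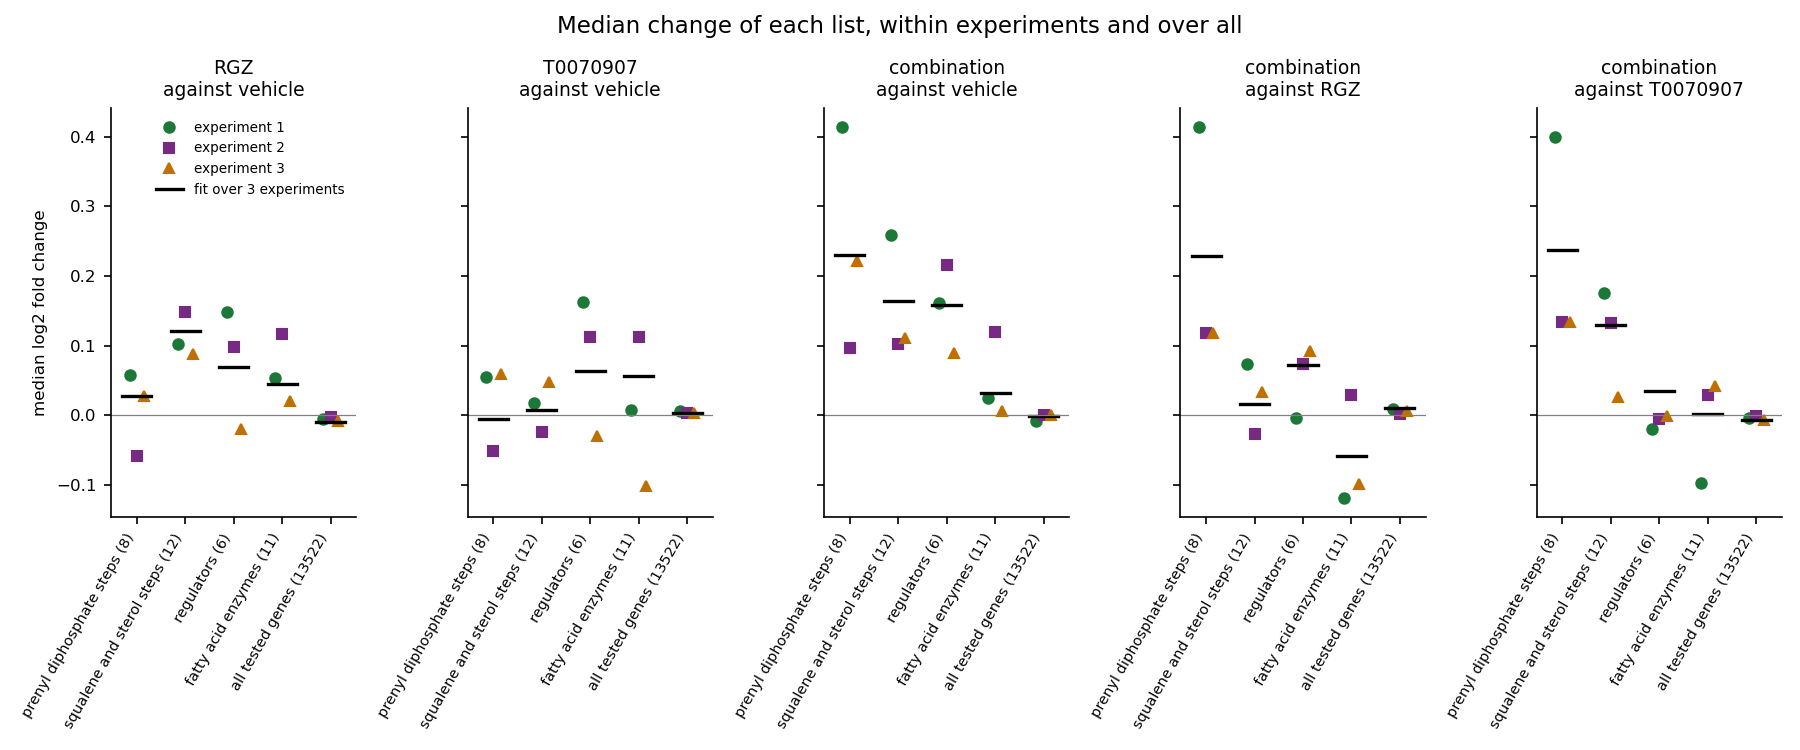
Median log2 fold change of 4 lists of members and of all 13522 tested genes in 5 comparisons, within each experiment (points) and in the edgeR fit without the block (black bars), with the number of genes in parentheses. In all 4 lists of members the combination stands above vehicle in each experiment. The medians are 0.41, 0.10 and 0.22 for the prenyl diphosphate steps and 0.26, 0.10 and 0.11 for the squalene and sterol steps.

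Many members differed between the experiments. With condition held fixed, 21 of 37 members differed between the 3 experiments in edgeR's test, against 30.5% of all tested genes, and all 21 were highest in experiment 2, which held for 1955 of the 4122 genes called over the whole table. Over all 37 members, 29 were highest in experiment 2, as were 4881 of all 13522 tested genes (36.1%). By list, 9 of 20 cholesterol enzymes, 5 of 6 regulators and 7 of 11 fatty acid enzymes were called. *SCD* had 429.5 ± 69, 549.6 ± 65.1 and 388 ± 69 CPM in experiments 1, 2 and 3 (SD, n = 4 each). The 4 libraries of an experiment are 1 of each condition, so these SDs and the next include differences between conditions. *FADS1* (NCBI gene 3992), a desaturase of polyunsaturated fatty acids, had 234 ± 7.79, 279 ± 12.7 and 199 ± 14.7 CPM (SD, n = 4 each), and *ACLY* (NCBI gene 47) had 393 ± 20.0, 447 ± 16.1 and 346 ± 10.6 CPM (SD, n = 4 each). *SCD*, *FADS1*, *ACLY* and *DHCR7* were the members with the smallest p-values for the experiment (adjusted p = 4.66e-07, 3.07e-06, 1.26e-05 and 2.19e-05 in edgeR with Benjamini-Hochberg adjustment). The 4 libraries of experiment 2 were all above those of experiment 3 for *FADS1* and *ACLY*, at 234, 260.2 and 202 CPM with vehicle, 239.9, 287 and 218 under RGZ, 238, 281 and 183 under T0070907 and 223, 287 and 193 under the combination for *FADS1*, and at 391, 428 and 351, 405, 464 and 355, 410.1, 457 and 348 and 366, 441 and 331 for *ACLY*. The median share of a member's variance that lay between experiments was 46.8%, against 32.9% between conditions, and over all tested genes these shares were 27.7% and 34.4%. Among the lists of members, only the prenyl diphosphate steps had a smaller median share between experiments (22.2%) than between conditions (48.6%), and of the other pathway genes described below, so had those of sterol transport and esterification (41% and 46.1%) and those of fatty acid supply and elongation (33.5% and 45.1%). Cell markers moved with the experiments too: *SOX10* averaged 307, 211 and 408 CPM, *SOX9* 8.63, 23.4 and 2.01 and *COL1A1* 9.55, 23.3 and 4.22 in experiments 1, 2 and 3. *S100B* and *NGFR* (203, 80.1 and 222 CPM) had the same order as *SOX10*, highest in experiment 3 and lowest in experiment 2. *EGFR*, *COL1A1* and *MITF* (45.9, 54.5 and 31.0 CPM) had the same order as *SOX9*, highest in experiment 2 and lowest in experiment 3. *LUM* had another order, at 3.63, 4.65 and 6.40 CPM. *DCN* and *PDGFRA* were also highest in experiment 3, where *COL1A1* was lowest. The part of these markers in the differences was not tested.

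**Figure D5:**
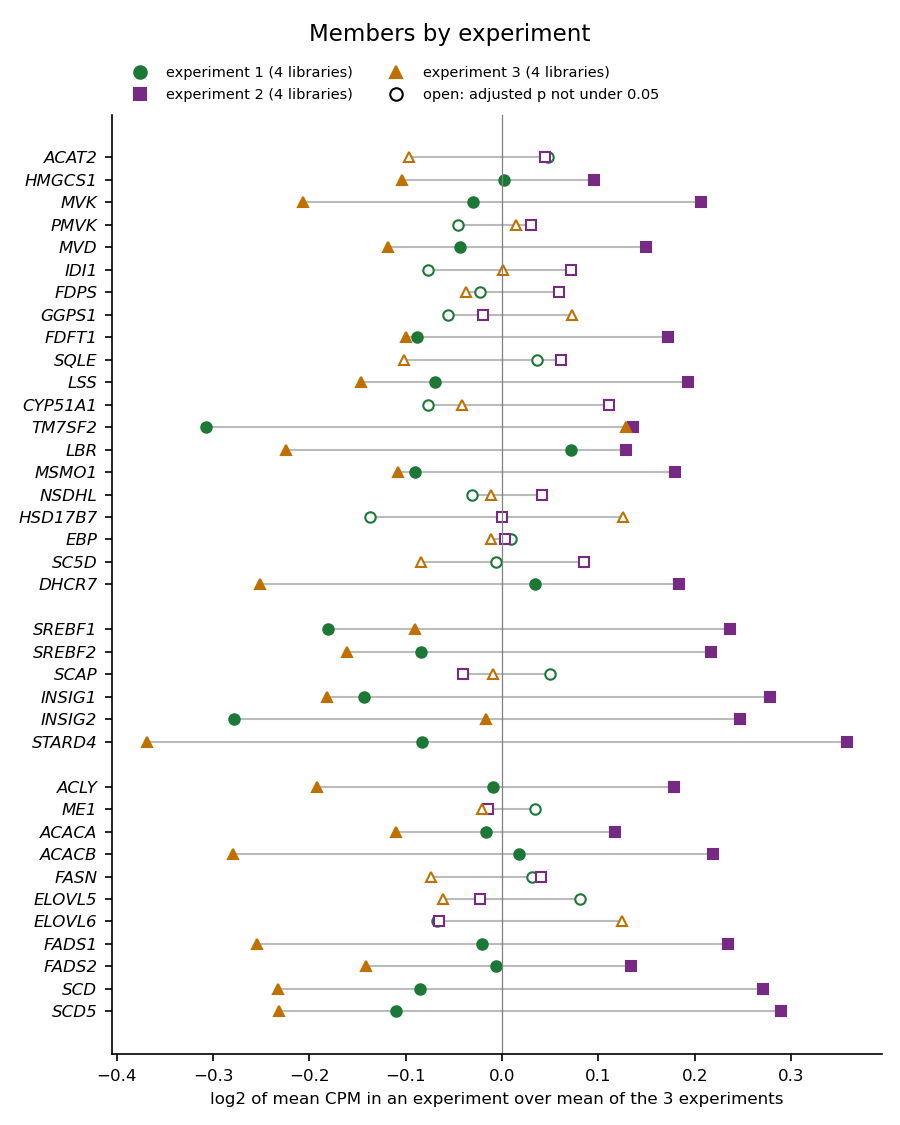
Mean CPM of the 37 genes in each experiment (4 libraries) as log2 relative to the mean of the 3 experiments, with filled points for genes whose difference between experiments has an adjusted p-value under 0.05. All 21 filled genes are highest in experiment 2.

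Pathway genes outside the members were read from lists chosen by function. For RGZ against vehicle, edgeR without the block called 1 of 17 tested genes of fatty acid supply and elongation, against 1.24% of all tested genes. This was *ELOVL1*, which elongates very long chains (0.34 ± 0.06, adjusted p = 0.0278, higher in 3 of 3 experiments). The same fit called 0 of 9 in SREBP processing and sterol-regulated degradation, 0 of 6 in sterol transport and esterification, 0 of 9 in isoprenoid use and 0 of 5 in mitochondrial fatty acid synthesis, where 0, 2, 0 and 0 had an unadjusted p-value under 0.05, against 10.5% of all. DESeq2 called *ELOVL1* and *NPC2*. With the block these lists held 2 higher and 1 lower, 0, 1 higher, 0 and 0 calls in the same order, against 9.3% of all tested genes. The calls with the block were *ELOVL1*, *SLC25A1*, the mitochondrial citrate carrier (0.37 ± 0.08, adjusted p = 0.00501), *FADS3* (-0.27 ± 0.07, adjusted p = 0.0191) and *NPC2*, a sterol carrier of lysosomes (0.56 ± 0.07, adjusted p = 3.09e-05). For T0070907 the block gave 1 call over these lists, *ACSS2*, which makes acetyl-CoA from acetate (0.37 ± 0.08, adjusted p = 0.0441, higher in 3 of 3 experiments), against 0.91% of all, and none was called without it. For the combination against vehicle, edgeR called 0 with or without the block and DESeq2 called 0. Of the 17 genes of fatty acid supply and elongation, 3 without and 6 with the block had an unadjusted p-value under 0.05 there, as did 1 and 2 of the 6 of sterol transport, 0 and 1 of the 9 of SREBP processing, and 0 and 0 in the remaining 2 lists, against 10.6% and 21.2% of all tested genes. Against RGZ the block called *IDH1* and *FADS3* higher and *ELOVL1* and *NPC2* lower (11.4% of all genes were called there), and against T0070907 *NPC2*, *STARD3* and *SLC25A1* higher (8.76% of all). In edgeR without the block none of these genes passed in either comparison, where 1.24% and 0.037% of all tested genes were called.

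Some counts cannot be assigned to 1 gene with certainty. The sources used here do not say whether reads were counted by strand, and overlaps on the same strand are ambiguous either way. In GENCODE 29 the exons of 16 members overlap those of another gene, on the opposite strand for 15 and on the same strand for 5. *CYP51A1* shares 79.4% of its exon bases with a protein-coding model on its own strand, *GGPS1* 37.3% with *TBCE*, and *ACAT2* lies opposite *SOD2* (26.5%), *SOD2-OT1* (33.9%) and *TCP1* (9.23%). *FADS1* and *FADS2* overlap each other on opposite strands. Pseudogenes are named after 5 members, with 8 for *FDPS*, 3 for *CYP51A1*, 2 for *HSD17B7* and 1 each for *FADS2* and *SCD*. For these members the values are uncertain to the extent that reads were shared.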

How the data were processed

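The authors deposited raw read counts for 23705 genes, listed by NCBI gene number, and these counts carried no normalization. Per the submitters' processing notes the genome build was hg19, and the aligner, the annotation and the use of strand are not given in the sources used here. Gene numbers were given symbols from a reference table, which named 23538 of them. Libraries were assigned to the 4 conditions and 3 experiments from their titles.

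The software was edgeR 4.0.16, DESeq2 1.42.0 and limma 3.58.1, run under R 4.3.3. Libraries were scaled by TMM, genes were kept by filterByExpr with the conditions as groups (13522 genes), and 1 quasi-likelihood model of condition was fitted to all 12 libraries. The 6 contrasts were tested over all these genes with Benjamini-Hochberg adjustment, and the scripts were tested on simulated counts with known changes. Standard errors are approximate, taken as the absolute log2 fold change over the root of F. The titles number the libraries of each condition 1 to 3, and this number was taken as that of the independent experiment, which the labels do not state. Deviations from the condition means correlated across genes by 0.554 on average for the 18 pairs of libraries of 1 experiment (0.0793 to 0.758). For the 36 pairs of different experiments they ran from -0.687 to 0.0921, so the ranges overlap, and because deviations sum to 0 within a condition these pairs are no separate contrast. The common dispersion was 0.0193 without and 0.00333 with the experiment as a block.

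The members and lists were chosen with earlier results of these data known. Values in every library are given for the 8 members with the smallest p-value for RGZ against vehicle, the 4 for T0070907 against vehicle and the 4 for the experiment, and for *SREBF1*, *SREBF2* and *INSIG1*. Members called only with the block are given with both adjusted p-values, and up to 6 other pathway genes are named for RGZ. Other genes named were chosen after their values were seen. The alternatives were the block, DESeq2's size factors within edgeR, DESeq2's own test, no filter beyond a count of 1 in the table, at least 10 counts in every library, and a fit without each library in turn. The size factors, the minimum of 10 counts and the left-out libraries were also each combined with the block, and these combinations were chosen after seeing the data.

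Promoter sequences came from RefSeq (GRCh38.p14), transcript lengths and exon overlaps from GENCODE 29, and figures from matplotlib 3.10.9 in Python 3.11.15. The 6 motifs were chosen after the expression data were seen, and the counting over all promoters of a gene and the 4 promoters and windows printed were chosen after the matches were seen. All 6 motifs searched are reported, with both ways of counting.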

Additional observations from a re-analysis of the deposited data

Results flagged for a closer look

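In 2 members every experiment moved one way with RGZ alone and the other way with RGZ in the presence of T0070907. *MVD* was lower with RGZ than with vehicle and higher with the combination than with T0070907 in 3 of 3 experiments, and its effect of RGZ with T0070907 minus that without was 0.35 on the log2 scale. *ACLY* was higher with RGZ than with vehicle and lower with the combination than with T0070907 in 3 of 3 experiments, and the same difference was -0.16. In experiment 3 the step from vehicle to RGZ was small, from 22.12 to 21.92 CPM for *MVD* and from 350.5 to 355.4 CPM for *ACLY*. The share of all tested genes with opposite directions of this kind is not given here, so the count of 2 cannot be set beside a background. These directions alone are no test of the difference. The interaction test of edgeR gave *MVD* an adjusted p = 1 without the replicate block and 0.391 with it, and *ACLY* an adjusted p = 1 and 0.484, after Benjamini-Hochberg adjustment over all tested genes. Neither passed.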

How the results depend on the processing

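The replicate block moved the number of members called by edgeR from 0 to 4 for RGZ against vehicle, from 0 to 6 for the combination against RGZ and from 0 to 6 for the combination against T0070907, and it changed no other count of members called. DESeq2's test called 1 member for the combination against RGZ and 0 in the other contrasts. Size factors, no filter and the stricter filter left these counts at 0 without the block, and with the block size factors gave 7 in place of 6 for the combination against T0070907. The number of members with a positive fold change was the same under TMM and size factors in all 6 contrasts. Leaving out each of the 12 libraries without the block gave 0 to 1 members (53 to 148 of all genes) for the combination against RGZ and 0 in the other contrasts. With the block it gave 3 to 4 members (717 to 2044 of all genes) for RGZ, 0 to 1 (30 to 329) for T0070907, 0 to 11 (0 to 2594) for the combination against vehicle, 4 to 9 (856 to 2575) against RGZ and 1 to 11 (106 to 3342) against T0070907, so the number of all genes called moved as well. Over the same fits without the block, the median log2 fold change of the cholesterol enzymes ranged from 0.016 to 0.116 for RGZ, from -0.060 to 0.069 for T0070907, from 0.13 to 0.24 for the combination against vehicle, from 0.017 to 0.146 against RGZ, from 0.12 to 0.20 against T0070907 and from 0.032 to 0.153 for the interaction. That of the fatty acid enzymes ranged from -0.023 to 0.093, -0.065 to 0.154, -0.040 to 0.083, -0.115 to 0.040, -0.132 to 0.123 and -0.103 to 0.053 in the same order, so its sign depended on the libraries. The members called between experiments numbered 16 to 26, beside 3116 to 5893 of all genes. The cause of these shifts was not tested. No fit varied the depth. The low genes *STARD4*, *TM7SF2* and *ACACB* had larger standard errors than *FDFT1*, *SCD* and *DHCR7*, and the part of depth in this was not tested.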
